A study of Homo sapiens with 6 samples.

Results

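RNA G-quadruplexes (rG4s) inside protein-coding sequence were described in mRNA of U2OS, a human osteosarcoma cell line, by where reverse transcriptase (RT) halts along the RNA. A stop was taken as a coding-sequence rG4 stop if it lay at a G of a coding sequence, reached 10 on the scale E in the library labelled Na+ and at least 2 times its E in the library labelled K+, and had 4 runs of 2 or more G with loops of 1 to 9 nt in the 45 nt that end at the stop. E is the stop count of a nucleotide over the mean stop count per nucleotide of its transcript, and transcripts were used if this mean was 1 or more in both libraries. In total 739 stops passed, of 5431 stops at G with an E of at least 10 and of 11540 such stops at any base. They fell into 443 regions (stops within 30 nt merged) in 339 genes. The same rule found 1822 stops in 3′ UTRs and 324 in 5′ UTRs. Since the members were selected on the 2 libraries without dimethyl sulfate (DMS), their difference between those libraries is a description and not a finding.

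The study has 6 libraries of poly(A)-selected U2OS mRNA, 1 for each condition and with no replicate, so that no difference between conditions has a replicate check. In 2 libraries, RNA without DMS was reverse transcribed, by the sample labels, in 150 mM Na+ or 150 mM K+. The methods of the study name Li+ in place of Na+, whereas its results name Na+ and describe stops that were stronger in K+. For these 2 libraries, sample labels and file names disagree: the file of the library labelled Na+ is named for K+, and the rule followed the file names. With these libraries exchanged, 11 stops passed the rule in place of 739. In 2 further libraries, purified RNA was refolded and treated with DMS in 150 mM K+ or 150 mM Li+. The last 2 came from cells treated with 8% DMS for 5 min, either control cells in regular medium (unstressed) or cells starved for 2 h in HBSS, a balanced salt solution. All 4 DMS libraries were reverse transcribed in 150 mM K+.

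An rG4 forms when runs of guanines stack as planar tetrads around a central cation. K+ fits this site well, Na+ less well and Li+ poorly. RT moving along the RNA from its 3′ end is blocked at the 3′ edge of a folded rG4, so a stop at the last G of a G-rich stretch marks one. DMS methylates the N7 of guanines that are not engaged in tetrads, which prevents the stretch from folding again during RT. After DMS treatment, a stop at the same G therefore reports that the stretch was folded when DMS was added. In a coding sequence, the runs of G also have to spell codons, GGN for glycine above all.

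The sequences of coding-sequence rG4 windows show how the G runs sit in the reading frame. The first set holds windows of RNA-binding proteins in which the runs are read mostly as glycine codons. TRA2B is a splicing regulator, and HNRNPU, HNRNPA3, HNRNPA2B1 and HNRNPAB are nuclear ribonucleoproteins. Each window ends at the stop and is given 5′ to 3′ on the mRNA, with runs of 2 or more G in capitals, from the reference genome GRCh37 (hg19). A window that crosses an exon junction has coordinates that include the intron.
TRA2B (chr3:185637261-185638912, - strand): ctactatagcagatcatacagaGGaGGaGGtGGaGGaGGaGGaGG
HNRNPU (chr1:245018835-245018879, - strand): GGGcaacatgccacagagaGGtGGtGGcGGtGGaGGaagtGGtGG
HNRNPA3 (chr2:178081480-178081612, + strand): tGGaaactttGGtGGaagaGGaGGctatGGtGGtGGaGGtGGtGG
HNRNPA2B1, stop in codon 273 (chr7:26233254-26233298, - strand): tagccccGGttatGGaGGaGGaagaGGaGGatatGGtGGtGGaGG
HNRNPAB (chr5:177636405-177637133, + strand): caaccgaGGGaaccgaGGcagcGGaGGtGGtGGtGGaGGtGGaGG

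In these windows most runs recur every 3 nt and are read as GGN. The next set holds windows rich in glutamate codons, in which many of the G runs are split between codons. The window of PTMA also holds 4 glycine codons. CHD4 is a chromatin-remodelling helicase, RRP9 and UTP3 take part in ribosome biogenesis, MYH9 is the heavy chain of nonmuscle myosin IIA, and PTMA the acidic nuclear protein prothymosin alpha.
CHD4 (chr12:6711146-6711190, - strand): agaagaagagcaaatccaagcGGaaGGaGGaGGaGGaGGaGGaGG
RRP9 (chr3:51972174-51972218, - strand): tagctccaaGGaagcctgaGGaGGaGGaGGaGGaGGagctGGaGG
UTP3, stop in codon 164 (chr4:71554840-71554884, + strand): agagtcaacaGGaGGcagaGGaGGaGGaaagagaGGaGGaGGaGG
MYH9, stop in codon 1351 (chr22:36689419-36689463, - strand): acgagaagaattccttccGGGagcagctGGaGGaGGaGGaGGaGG
PTMA (chr2:232576655-232577158, + strand): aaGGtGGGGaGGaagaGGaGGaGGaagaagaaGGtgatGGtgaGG

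The third set holds further windows, most with longer runs, from genes to which the results return. The window of RING1 among them is also rich in glycine codons. RBM17 is a splicing factor, SRP72 a subunit of the signal recognition particle, MRPL24 a protein of the mitochondrial ribosome, PRRC2A a large proline-rich protein, RPS9 a protein of the small ribosomal subunit, MAGEA4 a cancer-testis antigen, S100A2 a calcium-binding protein and RING1 a subunit of Polycomb repressive complex 1. SRP72 is shown without the part of its window that lies in the 5′ UTR.
RBM17 (chr10:6155525-6156036, + strand): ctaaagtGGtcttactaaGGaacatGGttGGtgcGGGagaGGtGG
SRP72, coding part (chr4:57333802-57333826, + strand): atGGcgagcGGcGGcagcGGGGGGG
MRPL24 (chr1:156708144-156708188, - strand): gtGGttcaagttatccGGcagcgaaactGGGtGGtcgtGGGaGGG
PRRC2A, stop in codon 1545 (chr6:31601638-31601682, + strand): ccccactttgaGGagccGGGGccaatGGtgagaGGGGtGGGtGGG
RPS9 (chr19:54711372-54711416, + strand): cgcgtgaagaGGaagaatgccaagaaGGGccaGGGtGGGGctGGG
MAGEA4 (chrX:151092798-151092842, + strand): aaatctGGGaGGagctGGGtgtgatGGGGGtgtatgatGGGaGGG
S100A2 (chr1:153534048-153536234, - strand): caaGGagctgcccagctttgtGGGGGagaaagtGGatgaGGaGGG
RING1, stop in codon 225 (chr6:33179110-33179154, + strand): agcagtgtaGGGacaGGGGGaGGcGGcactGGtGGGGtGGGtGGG

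The listed RT stops summed to between 12999691 in unstressed cells and 35371061 in the library labelled K+. The files list only nucleotides with at least 3 stops. Transcripts for mesenchymal markers that fit an osteosarcoma line (VIM, LGALS1, CD44, FN1, SPARC and CAV1) were all past the transcript minimum, whereas those for the epithelial markers EPCAM, CDH1, KRT5, KRT20 and CLDN4 and the blood markers PTPRC, HBB, HBA1, CD3E and CD79A were all below it. Of 17541 bases listed in the 739 windows, 0 differed from the matched reference sequence.

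The strength of the stops varied widely among the members. In the library labelled Na+, E ranged from 10.0 to 314 with a median of 19.8, and the count behind it had a median of 53 and a highest value of 2418. In the library labelled K+, 338 of 739 members were not listed, and the median E was 0.672. Where a member was listed in both, the median fold between the libraries was 11.99 and the lowest 2.07. The share of all stops at G with an E of at least 10 that were at least 2-fold stronger in the library labelled Na+ was 66.9%. Just inside the E threshold lay stops of EIF4E2 (10.02) and LAMTOR5 (10.02), and just outside it stops of MED21 (9.997) and ANP32E (9.99). Just inside the fold threshold lay stops of MTLN (2.07) and NDUFA11 (2.09), and just outside it stops of MTLN (1.98) and ALDH7A1 (1.95).

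The 10 strongest regions were those of RBM17, HNRNPU, TRA2B, HNRNPA3, RRP9, SRP72, MRPL24, CHD4, PRRC2A and AFG3L2, the last a subunit of a mitochondrial protease. The stop of RBM17, in codon 319, had 645 counts in the library labelled Na+ (E 314) and 11 in the library labelled K+ (E 5.70). In the refolded RNA it had 6 counts in K+ and 8 in Li+, and in cells 0 when unstressed and 7 when starved. TRA2B, with its stop in codon 249, had 2008 and 44 counts in the libraries labelled Na+ and K+. In refolded RNA it had 61 in K+ and 19 in Li+, and in cells 10 when unstressed and 26 when starved. CHD4, with its stop in codon 140, had 1077, 3, 33, 8, 0 and 5 counts in the same order. In each of these 10 regions, E in the library labelled Na+ was far above E in the 5 other libraries, which stayed at or below 17.1. AFG3L2 was listed in neither in vitro library nor in cells, with 338 and 5 counts without DMS.

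**Figure D1:**
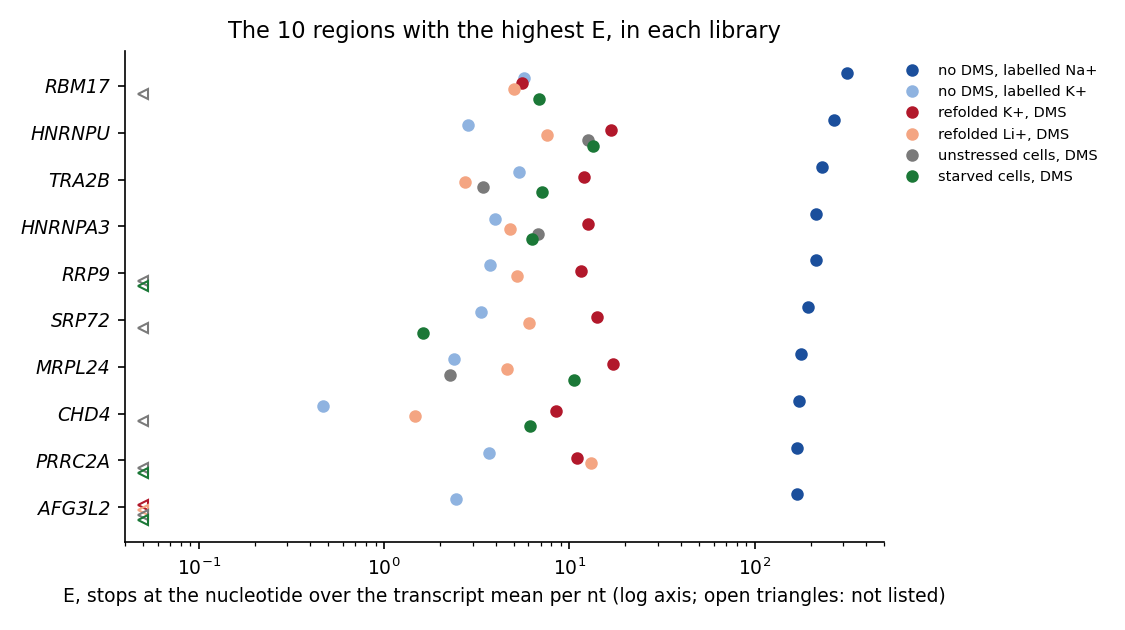
E of the strongest stop in the 10 coding-sequence rG4 regions with the highest E (horizontal log axis; 1 point per library, open triangles at the left edge where the stop is not listed). The library labelled Na+ lies between 168 and 314, and E in the other libraries does not exceed 17.1.

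Around the strongest stop of the 443 regions, the stop signal in the library labelled Na+ was concentrated at a few nucleotides. Relative to the mean of the same base in the transcript, counts were 30.2-fold at the stop itself, 4.69-fold 1 nt upstream and 3.69-fold 1 nt downstream. Smaller peaks stood 3, 6 and 9 nt upstream (2.85-, 1.81- and 1.47-fold), with values between 0.723 and 1.11 at the nucleotides between them from 8 to 2 nt upstream. In the library labelled K+, the stop itself was at 1.24-fold. In the 44 nt upstream of the stop, A and C stops were below their mean in all 6 libraries, between 0.419- and 0.545-fold. From 75 to 45 nt upstream, outside the window, they were also low, between 0.531- and 0.667-fold. In unstressed cells this flank (0.531) was even below the 44 nt (0.545), so the low range was not confined to the window. From 16 to 60 nt downstream they were between 0.912- and 1.06-fold. This low range was shared by the libraries with and without DMS.

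**Figure D2:**
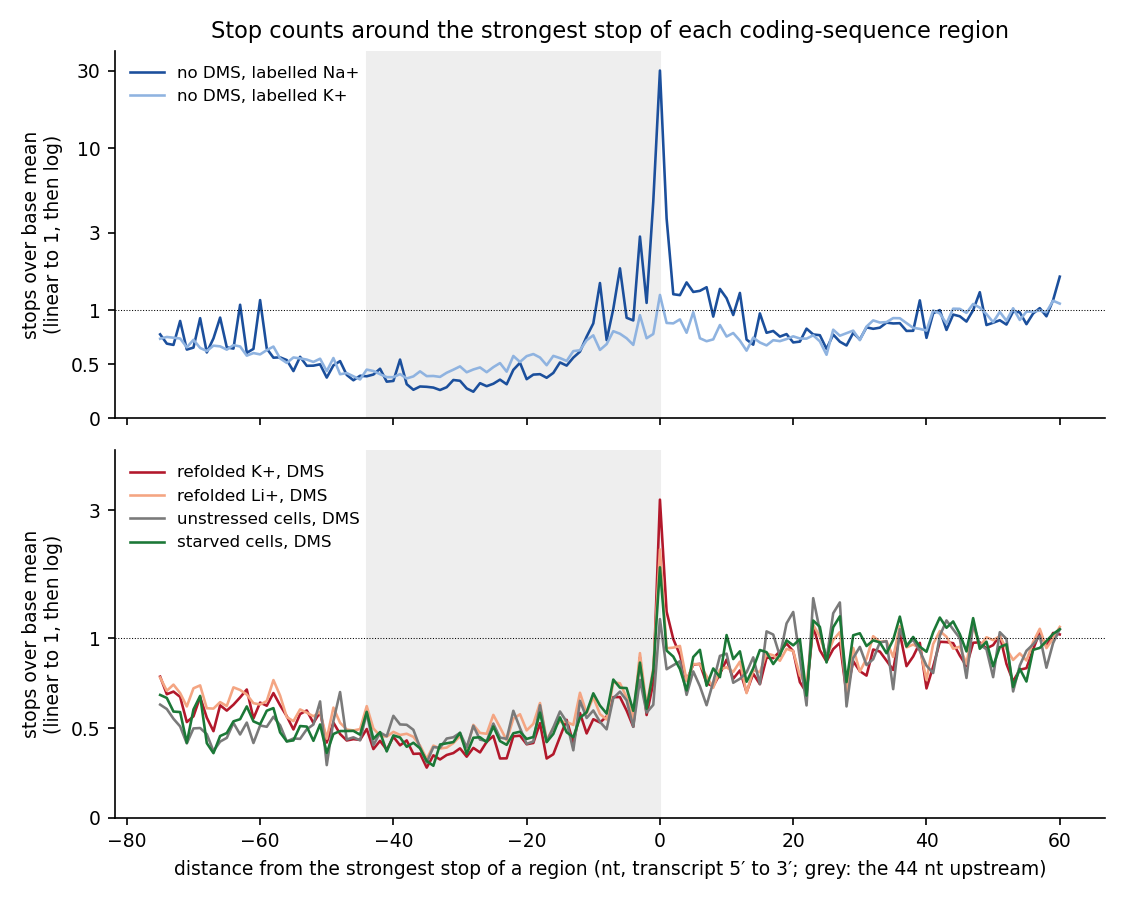
Stop counts over the mean count of the same base in the transcript (vertical axis, linear up to 1 and log above), summed over the strongest stops of 443 regions, against the distance from the stop (horizontal axis, nt). At the stop the values are 30.2 and 1.24 in the libraries labelled Na+ and K+ without DMS, 3.28 and 2.14 in RNA refolded in K+ or Li+, and 1.18 in unstressed against 1.84 in starved cells.

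Among neighbouring members more than 1 nt apart, spacings of a multiple of 3 nt were frequent. Of 296 pairs of neighbours within 30 nt, 142 (48.0%) were 1 nt apart, 44 (14.9%) 3 nt and 20 (6.76%) 6 nt apart, against 15 at 2 nt, 10 at 4 nt and 14 at 5 nt. Of the 154 pairs 2 to 30 nt apart, 83 (53.9%) were a multiple of 3 nt apart. The spacing of G runs in other motif windows is not given, so how far the spacing of members follows that of the G runs was not tested. The base after the stop was not a G at 529 of 739 members (71.6%, 95% Wilson interval 68.2 to 74.7), so most stops lay at the last G of a run. Of the regions, 265 held 1 stop and 77 held 3 or more, up to 7 in 1 region. Members of 1 region share most of their window, so shares over stops weigh long stretches more than shares over regions.

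A reading frame could be set for 732 members. The stop was at position 1 of its codon in 297 (40.6%, 37.1 to 44.2), at position 2 in 263 (35.9%, 32.5 to 39.5) and at position 3 in 172 (23.5%, 20.6 to 26.7). Over all G of the same coding sequences, these shares were 40.96, 22.9 and 36.1%, so the stops lay more often at position 2 and less often at position 3, by more than the counting intervals. The last G of runs that end any motif window of the 2577 coding transcripts with a frame, stop or not, gave 49.5, 32.9 and 17.7%. Among the 523 members with no G after the stop, the closest match to that set, the shares were 42.6, 38.8 and 18.5%. The same background within the transcripts of the members gave 49.4, 34.3 and 16.3%. Position 1 was less frequent among the 523 members (38.5 to 46.9) than in either background. At position 2 their interval (34.7 to 43.1) overlaps that of the background within the same transcripts (33.4 to 35.2). The share at position 2 also depended on the thresholds: over all members it was 32.1% at an E threshold of 5 and 26.5% at a transcript minimum of 0.25.

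The codon that held the stop was a glycine codon for 459 of 732 members (62.7%), a glutamate codon for 100 (13.7%) and an aspartate codon for 55 (7.51%). Alanine followed with 46, valine with 32, arginine with 25 and tryptophan with 12. The frame decided which codon was found, and a run of 2 or more G that ends at position 2 always lies in GGN. These shares are not given for the last G of other motif windows, so they describe the members and do not set them apart from the motif. At position 3, 123 stops (71.5%) lay in GGG. At position 2, GGA held 74 stops and GGC 73, with 60 in GGG and 55 in GGT. At position 1, GAG held 52, GAA 41, GGC 34, GAC 33, GAT 22, GGA 20 and GGT 16. The next base was not a G at 223 of the 297 stops at position 1, and a run that ended there had begun in the codon before.

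Within the windows, glycine made up 28.3% of the whole codons (27.5 to 29.2), against 8.00% of the codons of the same coding sequences. It made up 15.2% in the 34224 other motif windows, which do not end at a member but can overlap the window of one. Counted once per region, the share was 24.9%, and with a transcript mean of at least 0.25 (3489 stops) it was 18.7%. Glutamate made up 15.5% (14.8 to 16.2), against 8.23 and 9.69%, and once per region 16.9%. Arginine stood at 8.24%, close to the 8.40% of the other motif windows. Alanine (5.56%), leucine (4.39%) and proline (2.61%) were below both comparison sets, which had 7.64 and 9.65% alanine, 8.87 and 8.23% leucine, and 6.23 and 5.04% proline. At least 5 glycine codons stood in 244 windows (33.3%) and at least 5 glutamate codons in 126 (17.2%), and 368 (50.3%) had one or the other.

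Codon choice differed for glycine as well. The rule asks for runs of G and so favours G-rich codons, and the other motif windows, which meet the same motif, are the closer comparison. Codons and the repeats below are counted over all stops, so a codon shared by windows of 1 region counts more than once. No share per region is given for them, and the intervals do not allow for the overlap. For glycine, GGT made up 26.3% of the codons in the windows against 18.2% in the other motif windows and 18.4% in the whole coding sequences. GGC went the other way, with 20.9% against 35.6 and 34.6%. GGG was at 29.8% against 26.3 and 23.8%, and GGA at 23.0% against 19.9 and 23.2%. For glutamate, GAG made up 78.3%, near the 77.3% of the other motif windows, with 62.8% in the whole coding sequences. GAG repeats and GGA repeats are the same letters in another frame. The string GGAGGAGGAGG was present in 80 of 732 windows (10.9%, 8.87 to 13.4) and in 1.29% of the other motif windows, searched on the mRNA strand only. In 60 of the 80 it was read as GAG for glutamate, as in CHD4 and RRP9, in 16 as GGA for glycine, as in TRA2B, and in 4 as AGG for arginine. With any base at the places between the runs (GGNGGNGGNGG, which includes the first string), 214 windows (29.2%) held the repeat, against 7.08% of the other motif windows.

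**Figure D3:**
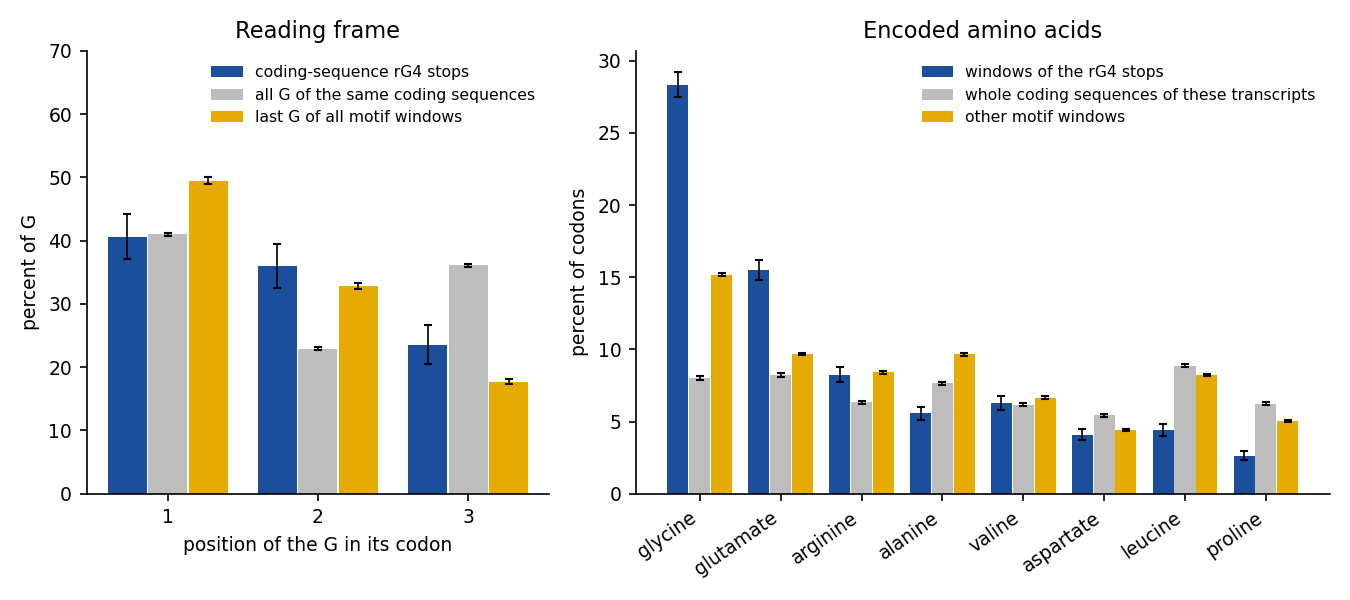
Left, percent of G at each position of the codon for 732 coding-sequence rG4 stops, all G of the same coding sequences, and the last G of all motif windows. Right, percent of codons for 8 amino acids in the windows, in the whole coding sequences and in other motif windows; bars with 95% Wilson intervals, and glycine reads 28.3, 8.00 and 15.2%.

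Most coding-sequence windows had short runs. Runs of 3 or more G that alone meet the motif were present for 96 of 739 members (13.0%, 10.8 to 15.6), against 42.3% of the stops that pass the same rule in 3′ UTRs and 25.0% in 5′ UTRs. Windows with such long runs were nevertheless members more often. Of the 520 motif windows of coding sequence with runs of 3 or more G, 59 (11.3%) ended at a member, against 453 of 34216 (1.32%) with runs of 2 G only. Glutamate made up 5.63% of the codons in members with the long runs and glycine 33.9%.

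Along the coding sequence, the 443 regions were more frequent at both ends. With the coding sequence cut into 5 equal parts, the parts held 118 (26.6%), 57, 66, 88 and 114 (25.7%) from start to end. Motif windows as such were spread as 32.1, 17.5, 16.2, 17.1 and 17.1%, so the last part held a larger share of the regions than of the motif windows. The first part (26.6%, 22.7 to 30.9) and the second (12.9%, 10.1 to 16.3) held a smaller share. The high count at the start thus did not exceed that of the motif itself. Regions are merged stops, whereas motif windows were counted singly, so the shares are not counted alike. The window crossed an exon junction for 159 stops (21.5%) and began in the 5′ UTR for 58.

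Of the 339 genes, 273 had 1 region, 44 had 2 and 22 had 3 or more. PLEC, the cytoskeletal linker plectin, had 7 regions. RECQL4, a DNA helicase, had 5. HNRNPA3, RING1, TAF15, MYH9 and RRP9 had 4 each. In PLEC the 10 stops had an E between 10.9 and 81.3, and in RECQL4 the 8 stops between 10.6 and 135. In MYH9 the 4 regions had 0 glycine codons and between 5 and 7 glutamate codons in the window of their strongest stop, whereas in RING1 these windows had between 6 and 9 glycine codons. None of 6 further genes looked for by name (ACTB, APH1A, APP, CDKN1B, HIRA and LMNB1) had a member in its coding sequence.

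Genes for RNA-binding proteins with RGG boxes or other glycine-rich stretches held members often. Glycine codons supply runs of G that the rule asks for, so a list of such genes is favoured by the rule itself. The comparison is with all coding genes and not with genes that hold a motif window. Of 28 such genes past the transcript minimum, 16 (57.1%) had at least 1 member, with 79 stops in 36 regions, against 339 of all 2588 coding genes (13.1%). Among them were DDX17, EWSR1, FBL, GAR1, HNRNPA0, HNRNPA2B1, HNRNPA3, HNRNPH1, HNRNPU, HNRNPUL1, NCL, RBM3, SERBP1, SFPQ and TAF15. Of 16 cytoskeletal genes 7 had a member, of 13 glycolytic genes 2 (HK1 and PGK1), and of 42 genes for initiation or elongation factors and their regulators 8. Of 84 ribosomal protein genes, which are among the most abundant transcripts, 3 (3.57%) had one, namely RPL22, RPS2 and RPS9. Neither of 2 collagen genes past the minimum did. The lists were chosen with earlier results of these data known, are described by their counts alone and were not tested.

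The comparison of RNA refolded in K+ and in Li+ asks whether these stretches fold in vitro, and it was not used to choose the members. Of 739 members, 103 had at least 20 counts over the 2 libraries. Their median log2 ratio of E was 0.73 (95% interval 0.35 to 0.92), and 80 of 103 were above 0. At least 2-fold stronger in K+ were 37 (35.9%, 27.3 to 45.5), against 4.65% of all G past the same count minimum. At least 2-fold weaker were 4 (3.88%), against 3.45% of all G. Coding stops at G that met the E threshold but not the 2-fold rule had a median of 0.02 and 2.92% in the upward class. Stops of 3′ UTRs by the same rule had a median of 0.60 and 31.6% (27.7 to 35.9), an interval that overlaps that of the coding stops. Counted once per region, 27 of 65 coding regions (41.5%) had a ratio of at least 2, and 42.6% of those in 3′ UTRs.

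By the strongest stop of each region, the 5 with the highest fold between K+ and Li+ were in CHD4, MRPL46, HNRNPAB, RPS9 and DDX17. RPS9, with its stop in codon 186, was the deepest of them. It had 2418 and 33 counts in the libraries labelled Na+ and K+, 206 in refolded RNA in K+ against 55 in Li+, and 14 in unstressed against 93 in starved cells. The ratio of K+ to Li+ was 5.07 for its E (3.75 to 6.96, an exact binomial interval for counting error only). The ratio was 5.81 for CHD4 (2.63 to 14.6), 5.34 for HNRNPAB (2.79 to 11.1) and 4.45 for the RNA helicase DDX17 (1.71 to 13.6). These intervals overlap, so the order of these genes is not fixed by the data.

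The 3 lowest on this measure were in PTMA, TCF25 and PTMS, each with at least 5 glutamate codons in the window. PTMA, with its stop in codon 74, had 924 and 34 counts without DMS, 12 in refolded RNA in K+ against 33 in Li+, and 8 in unstressed against 20 in starved cells. Its ratio of K+ to Li+ was 0.486 (0.229 to 0.967). For TCF25 (0.516, 0.148 to 1.47) and PTMS, parathymosin (0.550, 0.193 to 1.39), the interval includes 1. The 12 covered members with at least 5 glutamate codons had a median log2 ratio of -0.14 (-0.95 to 1.31), with 3 at least 2-fold higher and 2 at least 2-fold lower. The 50 with at least 5 glycine codons had a median of 0.77 (0.39 to 0.98). The 2 intervals overlap, and CHD4, with 6 glutamate codons in its window, was 5.81-fold higher in K+. Members with runs of 3 or more G and members with shorter runs had medians of 0.77 (17 stops) and 0.72 (86 stops).

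Over all members in the list of glycine-rich RNA-binding proteins, 15 of 33 covered stops (45.5%, 29.8 to 62.0) had a ratio of K+ to Li+ of at least 2, against 22 of 70 (31.4%, 21.8 to 43.0) of the members outside the list, which include TRA2B and HNRNPAB.

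The comparison of starved with unstressed cells asks whether the stretches were folded more often under stress. In cells the stops were sparse. Of 739 members, 132 (17.9%) were listed in unstressed and 201 (27.2%) in starved cells, and 34 stops in 21 regions had at least 20 counts over both, so that a stop high in either library could enter. The median log2 ratio of E was 0.96 (0.45 to 1.44), with 31 of 34 above 0. At least 2-fold higher in starved cells were 16 (47.1%, 31.5 to 63.3) and 0 were at least 2-fold lower. Over all G past the same count minimum, 36% were at least 2-fold higher and 1.82% lower, with a median of 0.70. Coding stops under the 2-fold rule had a median of 0.86 and 42.0% in the upward class. The share of the coding-sequence rG4 stops was thus near that of other G of the same libraries. For stops of 3′ UTRs by the same rule it was 79.5% (74.0 to 84.1, 244 stops, median 1.83), an interval above that of the coding stops. Counted once per region, 12 of 21 coding regions (57.1%, 36.5 to 75.5) were at least 2-fold higher, against 79.2% of 125 regions in 3′ UTRs (71.3 to 85.4), so that these intervals overlap. The median log2 ratios per region were 1.03 (0.40 to 1.55) and 1.99 (1.75 to 2.12).

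The difference at all G moved with the base composition of the stops. Stops at A or C made up 88.4% of the listed stops in unstressed and 78.2% in starved cells, and stops at G 9.02 and 16.2%. Relative to the mean of G alone, the median log2 ratio of all G was 0.03 and 13.2% were at least 2-fold higher. On this scale the 34 members had a median of 0.27 (-0.25 to 0.68) and 4 (11.8%, 4.67 to 26.6) were at least 2-fold higher, whereas stops of 3′ UTRs had a median of 1.01 and 50.4%. Per region the shares on this scale were 14.3% (4.98 to 34.6) and 56.0% (47.2 to 64.4). The median transcript mean of the members was 0.808 in unstressed and 0.526 in starved cells. The part of the base composition and of depth in the result was not tested. In refolded RNA, where stops at G were 12.2% in K+ and 12.1% in Li+, the same change of scale left the share of members at least 2-fold stronger in K+ at 35.9%.

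**Figure D4:**
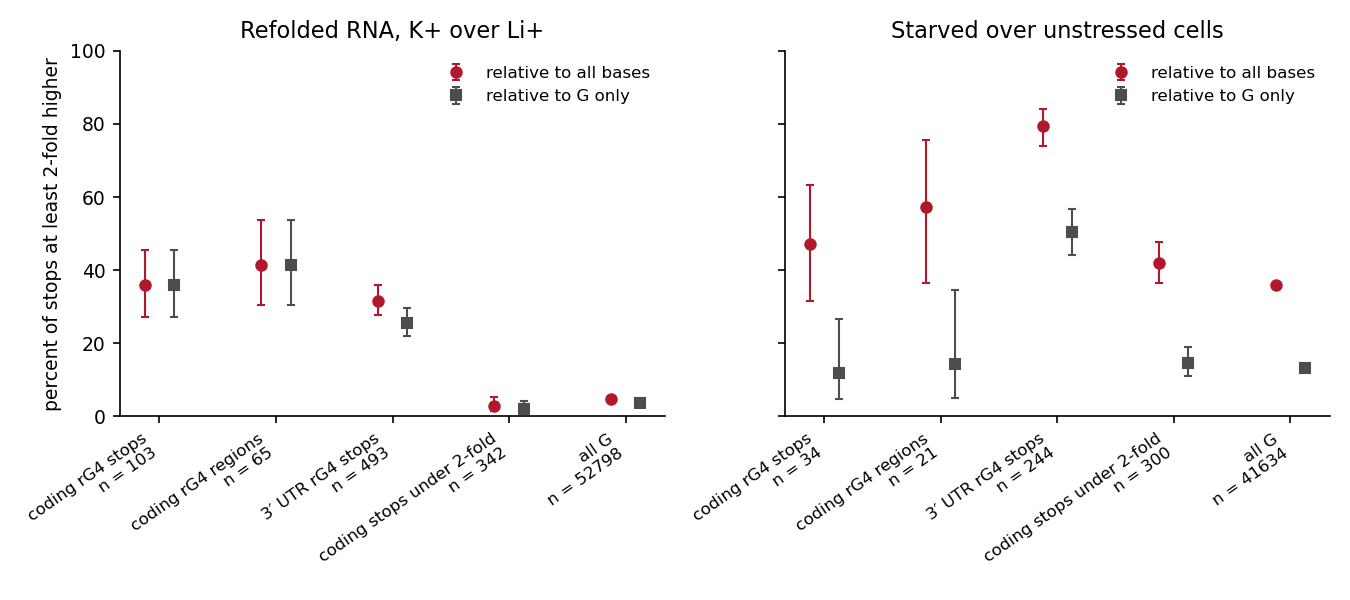
Percent of stops with E at least 2-fold higher in K+ than in Li+ (left) and in starved than in unstressed cells (right), with 95% Wilson intervals and n on the horizontal axis; circles, E relative to all bases, and squares, relative to G only. Coding-sequence rG4 stops lie at 35.9% on both scales in vitro, and at 47.1 and 11.8% in cells, where 3′ UTR rG4 stops lie at 79.5 and 50.4%.

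Among the strongest stops of single coding regions, the largest ratios of starved to unstressed cells were in MAGEA4, S100A2, RPS9, TUBA1B and HNRNPA2B1. S100A2, with its stop in codon 55, had 2179 and 69 counts in the libraries labelled Na+ and K+, 64 and 84 in RNA refolded in K+ or Li+, and 17 in unstressed against 168 in starved cells. It was 5.13-fold higher in starved cells (3.11 to 9.01), but its ratio of K+ to Li+ was 1.04 (0.737 to 1.45). RPS9 was higher on both, by 4.84-fold in starved cells (2.75 to 9.20). Relative to G alone, the log2 ratios were 1.56 for S100A2, 1.58 for RPS9 and 1.63 for MAGEA4, whereas those of TUBA1B (0.88) and HNRNPA2B1 (0.97) were under 2-fold. Neighbouring stops of these genes differed in size: the other covered stop of S100A2 in codon 55 (22 and 76 counts) was at 1.79-fold, and those of RPS9 were at 2.71-fold in codon 187 (14 and 52 counts) and 0.925-fold in codon 194 (56 and 71 counts). MAGEA4, with its stop in codon 236, had 505 and 11 counts without DMS, 32 and 18 in refolded RNA, and 4 and 16 in cells, a ratio of 5.36 (1.73 to 22.0). TUBA1B, an alpha-tubulin (22 and 42 counts), was 2.97-fold higher (1.73 to 5.22), and HNRNPA2B1 in codon 293, a window not shown above (5 and 23 counts), 2.97-fold (1.10 to 9.98).

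Again by the strongest stop of each region, the lowest ratios were in SNRPF, an Sm protein of the spliceosome, in HNRNPU and in KRTCAP2, a subunit of oligosaccharyltransferase. HNRNPU, with its stop in codon 748, had 1543 and 17 counts without DMS, 60 and 37 in RNA refolded in K+ or Li+, and 22 in unstressed against 21 in starved cells. Its E was 1.06-fold (0.556 to 2.03) in starved over unstressed cells, and already in unstressed cells it stood at 12.7, next to 16.8 in RNA refolded in K+ and 7.54 in Li+. SNRPF was at 0.774 (0.386 to 1.63) and KRTCAP2 at 1.11 (0.425 to 3.08). Relative to G alone, all 3 were lower in starved cells, with log2 ratios of -0.98 for SNRPF, -0.59 for HNRNPU and -0.50 for KRTCAP2, so that the direction turned for HNRNPU and KRTCAP2. Members of the glycine-rich RNA-binding list had 2 of 8 covered stops at least 2-fold higher (25.0%, 7.15 to 59.1), and members outside it 14 of 26 (53.8%, 35.5 to 71.2), with overlapping intervals. Of 85 genes with members in both the coding sequence and the 3′ UTR, 3 were covered in both in cells, with median log2 ratios over genes of 1.45 in the coding sequence and 1.47 in the 3′ UTR and the 3′ UTR higher in 1 of 3. So few transcripts cannot show whether the difference between the 2 places is present within a gene. In refolded RNA, 9 were covered in both, with medians of 0.69 and -0.08 and the 3′ UTR higher in 3 of 9.

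A folding score places each stop between its levels in refolded RNA, with 0 at E in Li+ and 1 at E in K+. It was set for the 37 coding members with a ratio of K+ to Li+ of at least 2 whose transcripts were covered in cells. The median score was -0.12 (-0.25 to -0.03) in unstressed and 0.19 (0.00 to 0.45) in starved cells. It was higher by at least 0.25 in starved cells for 19 of 37 (51.4%, 35.9 to 66.6) and lower by as much for 1, a stop of BCLAF1. Counted once per region, 14 of 27 (51.9%, 34.0 to 69.3) were higher. Over all stops that pass the rule at any place in the transcript, 72% were higher by at least 0.25. For the 126 scored stops of 3′ UTRs the medians were -0.16 and 0.755, and 81.7% (74.1 to 87.5) were higher, an interval above that of the coding stops. On the scale of G alone, the medians of the coding stops were -0.05 and 0.09, with 14 of 37 (37.8%) higher and 8 (21.6%) lower by at least 0.25 and a median change of 0.05 (-0.06 to 0.30). Those of 102 stops of 3′ UTRs were -0.02 and 0.45, with 66.7% higher and 11.8% lower. The counts behind the coding scores were low, with medians of 3 in unstressed and 5 in starved cells.

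The scores of single coding stops spread widely. LAMTOR5, a subunit of the Ragulator complex, went from -0.16 to 0.49 in its stop in codon 82, on 6 and 48 counts. RPS9 in codon 186 was at -0.16 and 0.17, and TRA2B at 0.08 and 0.47. HNRNPU was at 0.55 and 0.64, and was the only scored coding member above 0.5 in unstressed cells. UBA1, the ubiquitin-activating enzyme, had 1 stop at 0.992 in starved cells with no listed count, which shows how far the assumed count of 2 can set a score on a transcript of low coverage.

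**Figure D5:**
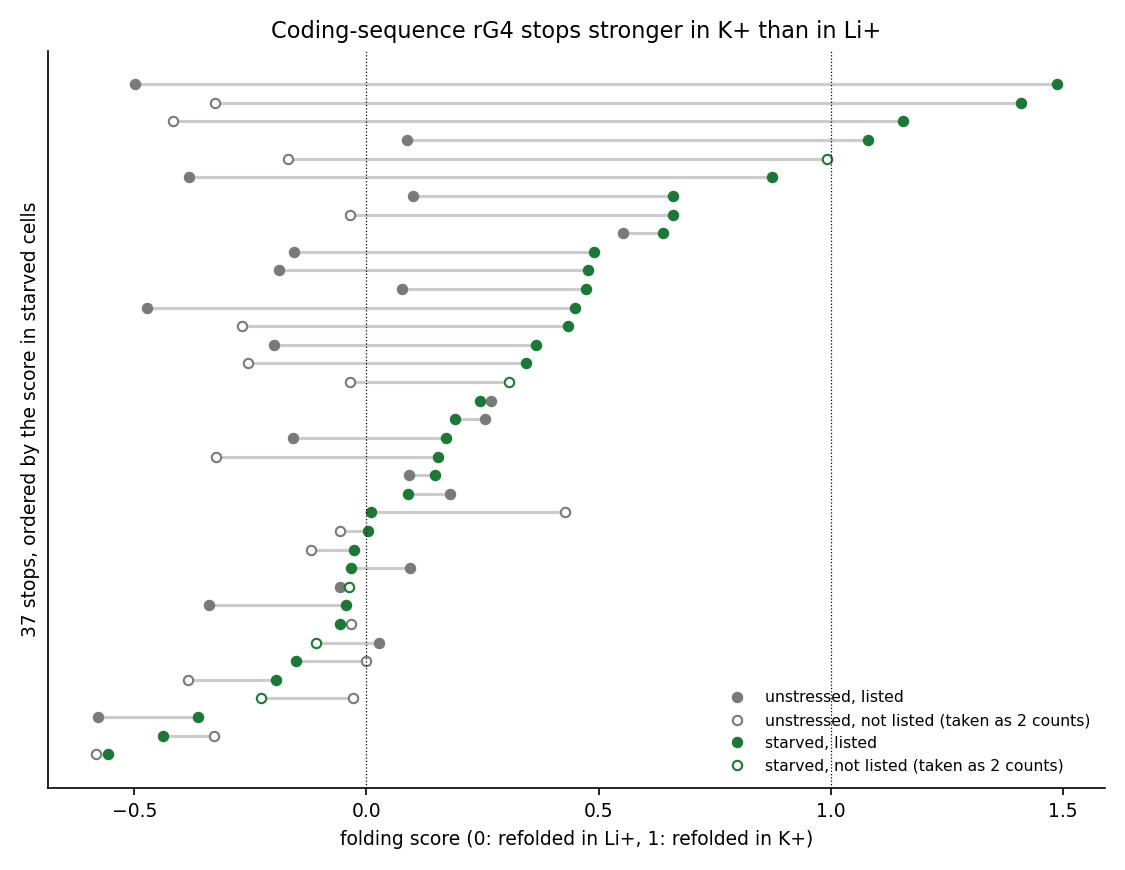
Folding score (horizontal axis, 0 for RNA refolded in Li+ and 1 in K+) of 37 coding-sequence rG4 stops in unstressed (grey) and starved (green) cells, 1 line per stop and open points where the stop is not listed and was taken as 2 counts. The medians are -0.12 and 0.19, and 19 stops are higher by at least 0.25 in starved cells.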

How the data were processed

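The data comprise 6 libraries of U2OS mRNA, 1 per condition and without replicates. Per the labels, mRNA fragments were reverse transcribed and stalled cDNAs were selected by size on a gel. Per the methods of the study, reads were mapped with Bowtie to an hg19 transcriptome at unique positions and without mismatches after duplicates were removed. The authors deposited counts of RT stops for nucleotides with 3 or more, and the ratio of each count to a transcript mean, which in the files is the mean over the same base.

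E was computed from the deposited counts as count × length over the sum of the listed counts of the transcript, with the length taken as the highest listed position. Positions not listed were 0 in the member rule. In the DMS libraries they were taken as 2 counts, transcripts had a mean of at least 0.25 in both libraries, and stops had at least 20 counts over both. Transcripts were matched by listed bases to GENCODE release 44 on GRCh37 (at least 97% identity), for 2650 of 2723 past the minimum. Of these, 2589 had a coding sequence. Shares have 95% Wilson intervals, medians order-statistic intervals and ratios exact binomial intervals. These cover counting error or variation between stops only, and duplicates or cultures are not represented. No p-value was computed.

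Named were the 10 regions with the highest E, the 5 highest and 3 lowest ratios in vitro and in cells, the 2 stops on each side of each threshold, the genes with 3 or more regions, and 6 genes looked for by name; other scored or covered stops (LAMTOR5, UBA1, BCLAF1) were chosen after their values were seen. Some items are not reported here. The members and gene lists were chosen with earlier results of these data known. Alternatives changed the thresholds, the scale of E, the treatment of low counts, the depth and the unit. On simulated counts, 200 sites had a planted 4-fold difference. Of these, 175 were covered in the comparison of K+ with Li+ (540773 sites), at a median of 4.08-fold, and 177 in the comparison of starved with unstressed cells (345251 sites), at 3.57-fold. Python 3.11.15, pandas 2.3.3 and scipy 1.17.1 were used.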

Additional observations from a re-analysis of the deposited data

How the results depend on the processing

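Of 145 values recomputed under an alternative, 115 stayed within the interval of the reported value (or, for the number of stops, within 1.5 times) and none changed sign. The number of members, 739 as reported, was 1714 with an E of at least 5, 365 with an E of at least 20, 404 with a transcript mean of at least 2, 3489 with a mean of at least 0.25, 96 with runs of 3 or more G and 11 with the 2 libraries without DMS exchanged. The share at codon position 2 was 32.1% with the E of 5, 39.6 and 26.5% with the means of 2 and 0.25, and 0% after the exchange. Position 3 held 29.7% with a mean of at least 0.25, and positions 1 and 3 held 30.5% each with the long runs and 63.6 and 36.4% of the 11 stops after the exchange. Glycine was 24.3, 32.0, 18.7, 33.9 and 22.9% of codons with the E of 5, the means of 2 and 0.25, the long runs and the exchange, and glutamate 13.4, 14.0, 14.4, 5.63 and 7.14%. With 1 stop per region they were 24.9 and 16.9%. With runs of 3 or more G, the folding score was higher by at least 0.25 in 71.4% of 7 stops. Relative to G only, starved over unstressed cells had a median log2 ratio of 0.27 and 11.8% at least 2-fold higher. The 3-fold rule, loops of 1 to 7 nt, the count minima, the treatment of positions not listed, the DMS transcript minimum and thinning moved no value beyond its interval. The cause of the changes was not tested.

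No paired analysis was possible because each condition has 1 library, and for the same reason no library could be left out. The file lists no count under 3, so a member not listed in cells cannot be told apart from one with 1 or 2 stops, and 550 of 739 members lay on transcripts covered in unstressed and starved cells, with 34 past the count minimum. The contradiction between the labels and the file names of the libraries without DMS sets which stops are members.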
